A study of Homo sapiens with 6 samples.

Results

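The genes described here encode 8 enzymes that make asparagine, glutamine and proline or exchange amino groups between glutamate and other amino acids: ASNS, GLUL, GPT2, GOT1, GOT2, PYCR1, ALDH18A1 and OAT. They were taken by gene symbol, and each of the 8 matched 1 of the 58735 genes in the deposited tables. RNA was sequenced from MDA-MB-231, a human line of triple-negative breast cancer. Cells of 3 libraries carried the vector named DNAJC12v in the labels (overexpression), and cells of the 3 control libraries carried the empty vector. DNAJC12 is a J-domain co-chaperone. The sources used here do not give whether expression was transient or stable, how long after transfection cells were taken, or whether the lines were clones. Separate cultures are not named either, so p-values measure the spread between these libraries, which may be technical.

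Glutamate and glutamine carry most of the nitrogen that cells move between amino acids. Glutamine synthetase fixes ammonia onto glutamate, asparagine synthetase passes the amide nitrogen of glutamine to aspartate, and the aminotransferases move amino groups between glutamate, alanine and aspartate in the cytosol and in mitochondria. Proline is built from glutamate or ornithine through pyrroline-5-carboxylate, and several of these genes are known targets of ATF4, the transcription factor of the amino acid response.

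ASNS is the textbook case of that response, and its promoter holds a C/EBP-ATF response element. The RefSeq promoter windows of GRCh38.p14, from 250 bases before to 50 after each annotated start, were searched on both strands for the core of such elements, TGATGNAA (TTNCATCA on the other strand). Windows, 8 in all, were at hand for 6 of the 8 enzymes, and ASNS and GOT1 held 1 match each. Another window of ASNS held no match. The 30 bases around each match are shown on the gene's strand, 5′ to 3′, with the match in capitals, because these were the only matches in the windows of the 6 genes.
ASNS: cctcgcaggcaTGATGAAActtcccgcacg
GOT1: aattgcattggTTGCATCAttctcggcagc
The ASNS stretch is chr7:97872458-97872487 on the minus strand. Its match begins 68 bases before a RefSeq start and lies in an untranslated exon annotated for ASNS in GENCODE 29. The GOT1 stretch is chr10:99430804-99430833, also on the minus strand, in an annotated untranslated exon of GOT1. That match begins 198 bases before the RefSeq start and reads on the opposite strand to the gene. Of 35116 promoter windows of this length, 3.62% held a match, and of the 27305 genes with such a window, 4.46% had a match. No match was found in the windows of GLUL, GOT2, ALDH18A1 and OAT, and none of these windows was measured for binding here.

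Each library held 17967283 to 18887497 counts. For DNAJC12 itself, overexpression replicates 1 to 3 held 522, 523 and 492 counts, and the controls 1, 0 and 0. Markers known as high in MDA-MB-231 (VIM, CD44, CAV1 and AXL) summed to 696 to 812 FPKM (counts scaled by library depth and gene length) with DNAJC12 and to 561 to 600 FPKM with the empty vector, without overlap. CAV1 (log2 fold change 0.91) and AXL (0.44) did not overlap, VIM (0.05) and CD44 (-0.10) did, and none was called. Of all tested genes, 9.26% were higher without overlap. Markers known as low (ESR1, PGR and CDH1) summed to 0.391 to 0.832 FPKM with DNAJC12 and 0.506 to 0.722 FPKM with the empty vector. Of 4 markers of other cells, CD3E was at 0 in every library and PTPRC and ALB near it, while PECAM1, an endothelial adhesion molecule, was called lower with DNAJC12. The 4 summed to 0.483 to 0.725 FPKM with DNAJC12 and 1.96 to 2.89 FPKM with the empty vector. Their part in the results was not tested, and in bulk RNA a change in cell makeup and a change in RNA per cell cannot be told apart. Overexpression replicate 2 stood apart from the others of its group: its counted transcripts had a mean GC content of 54.0%, against 51.4 and 52.4% in replicates 1 and 3. Empty vector replicates 1 to 3 had 52.0, 53.4 and 52.9%. The TMM scaling factor of overexpression replicate 2 was 0.853, against 1.09 and 1.01 in replicates 1 and 3 and 0.996 to 1.05 in the controls. Of the 8 enzymes, 7 were highest in that replicate among the overexpression libraries after this scaling, and 5 by raw count.

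In the edgeR quasi-likelihood test at an adjusted p of 0.05, ASNS and the alanine aminotransferase GPT2 were called higher with DNAJC12. None of the 8 was called lower, and 6 did not pass. Across all 14520 tested genes, 0.585% were called higher and 0.661% lower, 1.25% in all. The groups did not overlap in 5 enzymes that were higher (ASNS, GLUL, GPT2, GOT1 and PYCR1) and in 1 that was lower (ALDH18A1), against 9.26% and 10.8% of all tested genes, 20.1% in all. The median log2 fold change of the 8 was 0.51, beside 0.05 over all tested genes, and the values ran from -0.38 to 2.52. The 8 had been chosen with results of these data known.

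**Figure D1:**
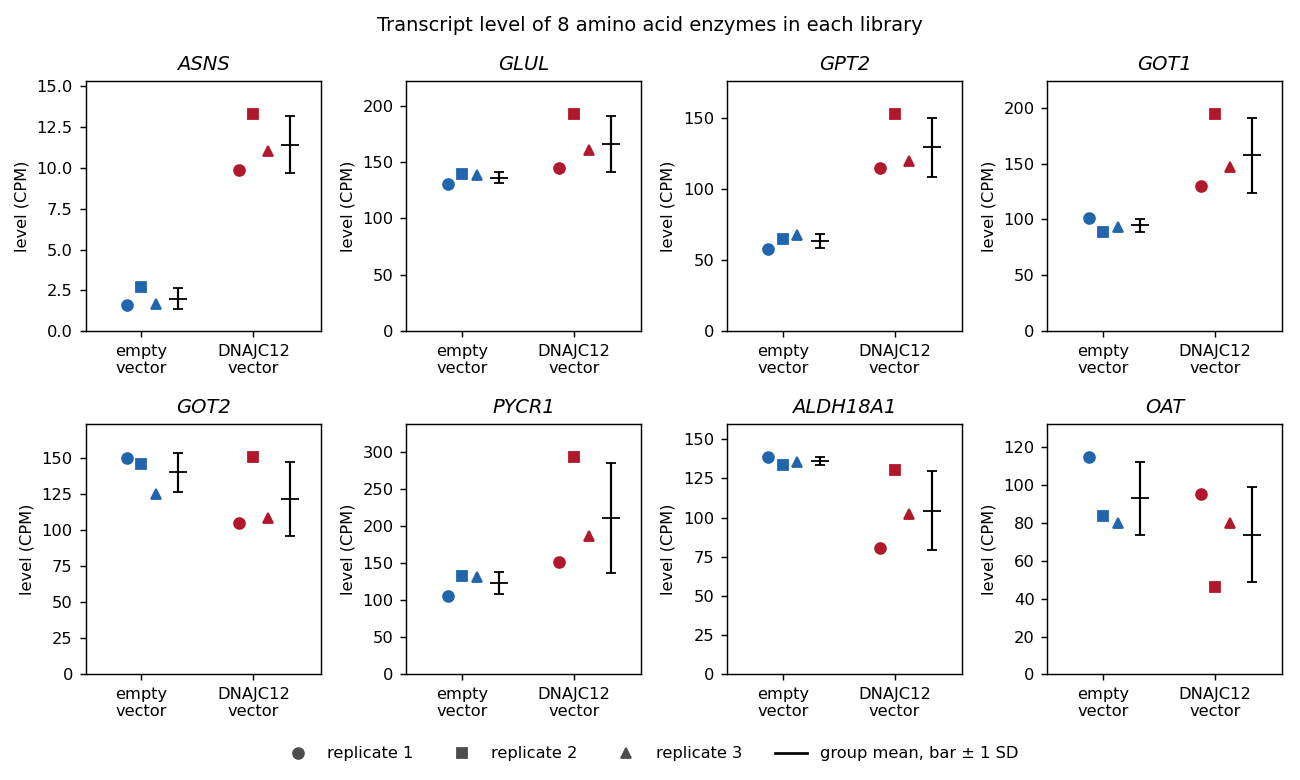
Level of each enzyme in depth-scaled counts (CPM, vertical axis from 0) in the 3 empty vector libraries (blue) and the 3 libraries with DNAJC12 (red). Symbols mark the replicate number and black bars the group mean ± SD. ASNS and GPT2 lie far above the control libraries, and overexpression replicate 2 is the highest of its group except in OAT.

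ASNS, asparagine synthetase, showed the largest rise of the 8. Levels are in CPM, counts scaled to a common library size after TMM scaling. ASNS stood at 9.90, 13.3 and 11.1 CPM in overexpression replicates 1 to 3, from 198, 211 and 212 counts. In empty vector replicates 1 to 3 it stood at 1.61, 2.72 and 1.65 CPM, from 30, 49 and 31 counts. The lowest overexpression library was thus more than 3 times the highest control, and the group means were 11.4 ± 1.74 and 1.99 ± 0.632 CPM (SD, n = 3). The log2 fold change was 2.52 ± 0.32 SE, with an adjusted p of 0.00821 by edgeR's quasi-likelihood test with Benjamini-Hochberg adjustment. ASNS lost its call when overexpression replicate 3 (adjusted p = 0.0575, edgeR), empty vector replicate 1 (0.0893) or empty vector replicate 3 (0.0804) was left out. In that order, those fits called 25, 25 and 27 of all tested genes, against 181 with all libraries. Its log2 fold change in the fits without 1 library ran from 2.38 to 2.78, and by limma on log2(FPKM + 1), a scale that understates changes of low genes, it was 1.29.

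The level of ASNS depends on how reads in shared exons were counted. ASNS (ENSG00000070669, minus strand of chromosome 7, 97852118 to 97872542 in GRCh38) lies inside AC079781.5, a processed transcript annotated on the same strand from 97851688 to 97972985. Of the 4455 exon bases of ASNS, 1985 also belong to exons of AC079781.5. The coding part is shared almost whole: 96.1% of its 1752 bases, leaving 69 coding bases in ASNS alone. The other 2470 exon bases of ASNS lie in no exon of another gene. The sources used here do not state how reads in both genes were assigned, so the low level of ASNS beside the other enzymes is uncertain, and its fold change rests on the reads that were counted. AC079781.5 itself had 39, 20 and 38 counts with DNAJC12 and 21, 32 and 53 with the empty vector, and the groups overlapped (log2 fold change -0.13 ± 0.40 SE). Of the other enzymes, only GOT2 shared coding bases with another gene (5.89%), and GLUL, GPT2, ALDH18A1 and OAT shared no exon base. GOT1 shared 19.3% of its exon bases with AL391684.1 on the opposite strand, which had 6 to 13 counts per library.

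**Figure D2:**
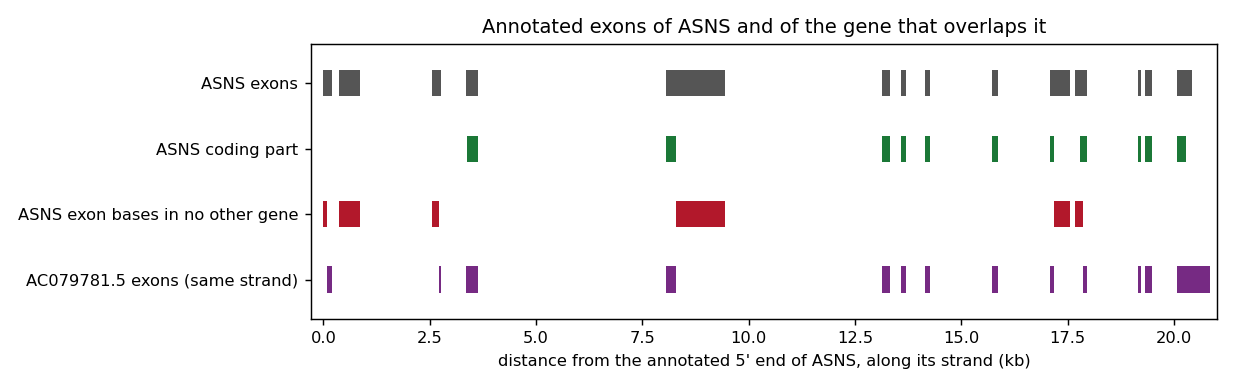
Annotated exons of ASNS in GENCODE 29, its coding part, the exon bases that belong to no other gene, and the exons of AC079781.5, against the distance in kb from the annotated 5′ end of ASNS along its strand. Nearly every coding block of ASNS also lies in an exon of AC079781.5, and the unshared bases fall mostly outside the coding blocks.

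GLUL, glutamine synthetase (ENSG00000135821, chromosome 1), did not pass. It stood at 145, 193 and 161 CPM in overexpression replicates 1 to 3 and at 130, 140 and 139 CPM in the empty vector libraries. All 3 overexpression libraries were above the highest control, replicate 1 by a small margin. The log2 fold change was 0.29 ± 0.20 SE (adjusted p = 0.564, edgeR), and 0.16 without overexpression replicate 2.

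GPT2, the mitochondrial alanine aminotransferase, which makes alanine and 2-oxoglutarate from pyruvate and glutamate, rose as well. The gene (ENSG00000166123) lies on the plus strand of chromosome 16, from 46884378 to 46931297. Its levels were 115, 153 and 120 CPM with DNAJC12 and 57.9, 65.1 and 67.6 CPM with the empty vector, with no overlap between groups. The mean was 2.03 times the control mean. The log2 fold change was 1.02 ± 0.21 SE and the adjusted p 0.0477 (edgeR), close to the threshold. GPT2 was not called with DESeq2 size factors (adjusted p = 0.0524, edgeR), nor when overexpression replicate 3 (0.210) or 1 of the controls, replicate 1 (0.248), 2 (0.218) or 3 (0.225), was left out, although its log2 fold change stayed between 0.88 and 1.09 in the fits without 1 library. The fits without overexpression replicate 3 or a control called 25 to 41 of all tested genes, against 181 with all libraries. Its cytosolic counterpart GPT had between 1 and 9 counts per library and was not tested.

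The aspartate aminotransferases GOT1 and GOT2 catalyse the same exchange between glutamate and oxaloacetate on either side of the mitochondrial membrane and are parts of the malate-aspartate shuttle. GOT1, the cytosolic enzyme (ENSG00000120053, chromosome 10), stood at 130, 195 and 147 CPM with DNAJC12 and at 101, 89.1 and 93.5 CPM with the empty vector. The groups did not overlap, but the difference of 0.73 ± 0.21 SE on the log2 scale did not pass (adjusted p = 0.155, edgeR). Without overexpression replicate 2 it was 0.55 (adjusted p = 0.0170, edgeR), in a fit that called 12.1% of all tested genes higher and 10.4% lower. GOT2, the mitochondrial enzyme (ENSG00000125166, chromosome 16), stood at 105, 151 and 109 CPM against 150, 146 and 125 CPM. Overexpression replicates 1 and 3 were below every control, while replicate 2 was above them all. Its log2 fold change was -0.21 ± 0.22 SE (adjusted p = 0.724, edgeR). It was -0.39 without replicate 2, -0.12 without replicate 1 and -0.13 without replicate 3 of that group, and passed in none of these fits.

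Set against each other inside a library, where scaling between libraries plays no part, the pair gave ratios without overlap. In FPKM, GOT1 over GOT2 came to 1.39, 1.44 and 1.52 across overexpression replicates 1 to 3 and to 0.755, 0.683 and 0.839 across the controls. GOT1 was thus the more abundant transcript in every overexpression library and GOT2 in every control. The mean log2 ratio was 0.53 ± 0.07 with DNAJC12 and -0.40 ± 0.15 without (SD, n = 3), a difference of 0.94. The exact permutation test gave a two-sided p of 0.1, the smallest that 3 against 3 libraries allow, and 0.2 after Benjamini-Hochberg adjustment over the 6 pairs. These pairs, though fixed by role, were chosen with earlier results of these data known, so the p-values are descriptive. The transcripts of the pair have nearly the same GC content, 51.8 and 51.5%. Leaving out any 1 library left the difference between 0.86 and 1.01.

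**Figure D3:**
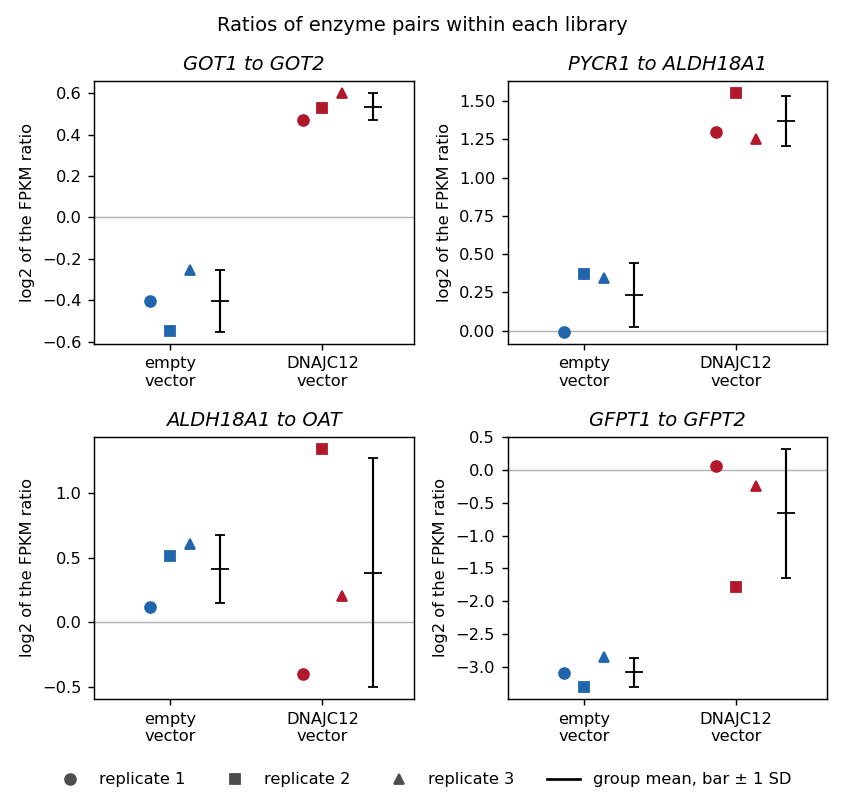
Log2 of the FPKM ratio of 2 enzymes within each library (vertical axis), for the empty vector (blue) and DNAJC12 (red) libraries, with the mean ± SD in black and a grey line at equal FPKM. GOT1 to GOT2 crosses the line of equality between the groups, whereas the groups overlap in ALDH18A1 to OAT.

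Of the 8 enzymes, those of the early steps of proline synthesis had values below 0. PYCR1, of the last step, had a value above 0, and none of these passed. PYCR3, a proline enzyme outside the 8, also had a value below 0 (-0.47, adjusted p = 0.574, edgeR). ALDH18A1 makes pyrroline-5-carboxylate from glutamate, OAT makes it from ornithine, and PYCR1 reduces it to proline in mitochondria. ALDH18A1 (ENSG00000059573, chromosome 10) stood at 80.5, 130 and 102 CPM with DNAJC12 and at 139, 134 and 136 CPM with the empty vector. All overexpression libraries were below the controls, replicate 2 only just. The log2 fold change was -0.38 ± 0.22 SE and did not pass (adjusted p = 0.487, edgeR). Without overexpression replicate 2 it was -0.57 (adjusted p = 0.0184, edgeR), in a fit that called 10.4% of all tested genes lower, and without overexpression replicate 1 it was -0.23 (adjusted p = 0.696, edgeR).

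OAT, ornithine aminotransferase (ENSG00000065154, chromosome 10), stood at 95.5, 46.1 and 80.0 CPM against 115, 84.0 and 80.0 CPM. The groups overlapped, and overexpression replicate 2 was far below the rest. OAT has the lowest GC content of the 8 genes, 42.4%, and was 0.92 lower in replicate 2 than the mean of replicates 1 and 3 on the log2 CPM scale, whereas the other enzymes were 0.34 to 0.80 higher there. Its log2 fold change was -0.33 ± 0.29 SE (adjusted p = 0.660, edgeR). It was -0.08 without that replicate, -0.57 when overexpression replicate 1 was left out and -0.16 when empty vector replicate 1 was, with no call. After GC correction OAT was at -0.48 and passed as lower (adjusted p = 0.0111, edgeR), in a fit that called 9.46% of all tested genes lower.

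PYCR1 (ENSG00000183010, chromosome 17) stood at 152, 293 and 187 CPM with DNAJC12 and at 106, 132 and 132 CPM with the empty vector. The groups did not overlap, and replicate 2 was the highest by a wide margin. PYCR1 has the highest GC content of the 8, 62.4%. The log2 fold change was 0.77 ± 0.27 SE (adjusted p = 0.223, edgeR), and 0.46 without replicate 2 (adjusted p = 0.0511, edgeR). Of its exon bases, 29.7% also lie in exons of other genes. These are MYADML2 (408 bases, same strand), with no more than 2 counts in any library, and AC145207.4 (450 bases, opposite strand), with 0 counts.

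Within each library, the FPKM ratio of PYCR1 to ALDH18A1, a pair chosen after the values were seen and so not tested, was 2.46, 2.93 and 2.39 against 0.995, 1.29 and 1.27.

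Among the other pairs fixed by role, the ratio of ASNS to the asparaginase ASRGL1 was 17.0, 7.01 and 14.5 with DNAJC12 and 1.19, 1.68 and 0.862 with the empty vector. The groups did not overlap (exact permutation p = 0.1, and 0.2 after Benjamini-Hochberg adjustment over the 6 pairs). This ratio rests on 12 to 37 counts of ASRGL1 per library and on the uncertain ASNS counts. The pair, too, was chosen with earlier results of these data known. ALDH18A1 to OAT, the routes from glutamate and from ornithine, differed by -0.03 in mean log2 ratio with overlapping groups (exact permutation p = 1). That difference was 0.36 without overexpression replicate 1 and -0.51 without replicate 2. GPT2 to GPT overlapped as well.

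**Figure D4:**
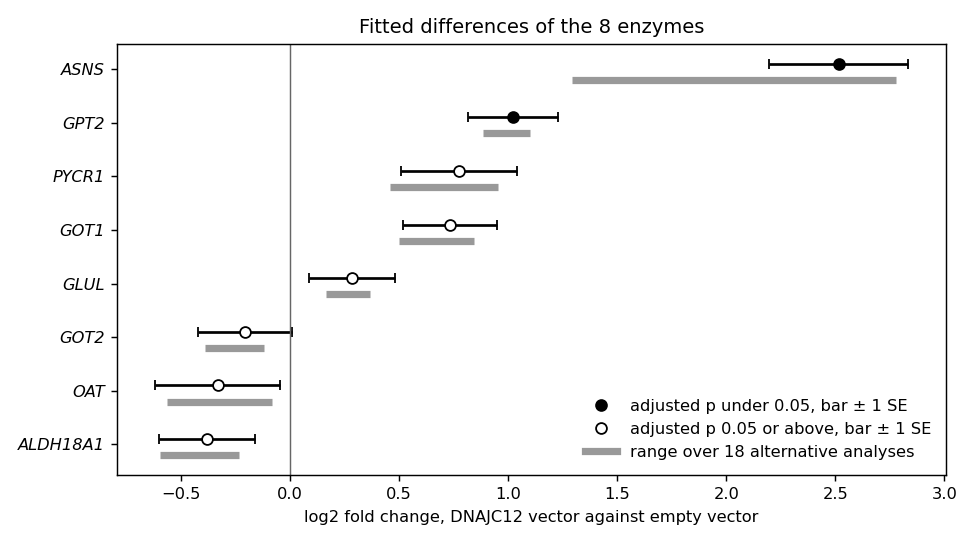
Log2 fold change of each enzyme between DNAJC12 and empty vector libraries (horizontal axis) from the edgeR fit, ± SE, with filled points for an adjusted p under 0.05. Grey bars give the range of the estimate over 18 alternative analyses, none of which crosses 0 for these 8 genes.

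Read per length, PYCR1 was the most abundant of the enzymes in both groups, at 42.5 ± 5.44 FPKM with the empty vector and 72.4 ± 25.8 FPKM with DNAJC12 (SD, n = 3). In the controls GOT2 (37.0 ± 3.51 FPKM) and ALDH18A1 (35.9 ± 0.472 FPKM) followed, with ranges of neighbours that overlapped. GOT1 (27.9 ± 1.67 FPKM) and OAT (27.3 ± 5.47 FPKM) came next and overlapped each other. GLUL (15.02 ± 0.635 FPKM), GPT2 (9.96 ± 0.838 FPKM) and ASNS (0.446 ± 0.143 FPKM) were each apart from their neighbours. With DNAJC12, GOT1 stood second (46.3 ± 10.2 FPKM) and GPT2 (20.1 ± 3.38 FPKM) reached the ranges of OAT and GLUL. There, every neighbouring pair overlapped except GLUL (18.2 ± 2.82 FPKM) and ASNS (2.54 ± 0.405 FPKM). The length used is the union of all annotated exons, from 2886 bases in PYCR1 to 9032 in GLUL.

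Few genes of the wider pathway passed. Of 55 other genes of asparagine, glutamine, glutamate, proline, arginine and aspartate metabolism, 44 were tested, 1 rose (ASS1), 1 fell (GFPT2) and 42 did not pass, beside 0.585% higher and 0.661% lower over all tested genes. Their median log2 fold change was 0.05. The 11 not tested had few or no counts, among them PRODH, the first enzyme of proline breakdown, and ARG1 and OTC of the urea cycle.

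ASS1, argininosuccinate synthase, uses aspartate to rebuild arginine from citrulline. It stood at 87.7, 143 and 115 CPM with DNAJC12 and at 52.1, 52.2 and 53.6 CPM with the empty vector, without overlap. Its log2 fold change was 1.13 ± 0.23 SE with an adjusted p of 0.0489 (edgeR). ASL, the next enzyme of the cycle, had a log2 fold change of 0.10, and ODC1, which turns ornithine to polyamines and was the most abundant of the group, 0.20 ± 0.19 SE (0.080 without overexpression replicate 2).

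GFPT2 and GFPT1 encode isozymes that spend glutamine on glucosamine-6-phosphate, the entry to the hexosamine pathway. GFPT2 stood at 74.4, 94.7 and 72.5 CPM with DNAJC12 and at 173, 164 and 152 CPM with the empty vector, again without overlap. Its log2 fold change was -1.02 ± 0.20 SE with an adjusted p of 0.0454 (edgeR). GFPT1, named after its values were seen, stood at 143, 51.3 and 113 CPM against 37.7, 30.9 and 39.0 CPM, and its transcripts are low in GC (38.8%). Every overexpression library was above the controls, with a log2 fold change of 1.52 ± 0.34 SE that did not pass (adjusted p = 0.0703, edgeR). GFPT1 was called higher in 6 of 18 alternatives: the DESeq2 Wald test (adjusted p = 0.00061), no filter, the replicate block, GC correction, and the fits without overexpression replicate 2 or both libraries numbered 2. Those alternatives called 527 to 3366 genes in all, against 181 in the main fit. The FPKM ratio of GFPT1 to GFPT2 was 1.04, 0.292 and 0.842 with DNAJC12 and 0.117, 0.101 and 0.139 with the empty vector. Leaving out overexpression replicate 3 ended the calls of ASS1 and GFPT2 (adjusted p = 0.235 and 0.288, edgeR). So did leaving out empty vector replicate 1, 2 or 3 (adjusted p = 0.218 or more for ASS1 and 0.190 or more for GFPT2, edgeR), and DESeq2 size factors ended that of ASS1 (0.0524). The fits without 1 of these libraries called 25 to 41 of all tested genes.

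**Figure D5:**
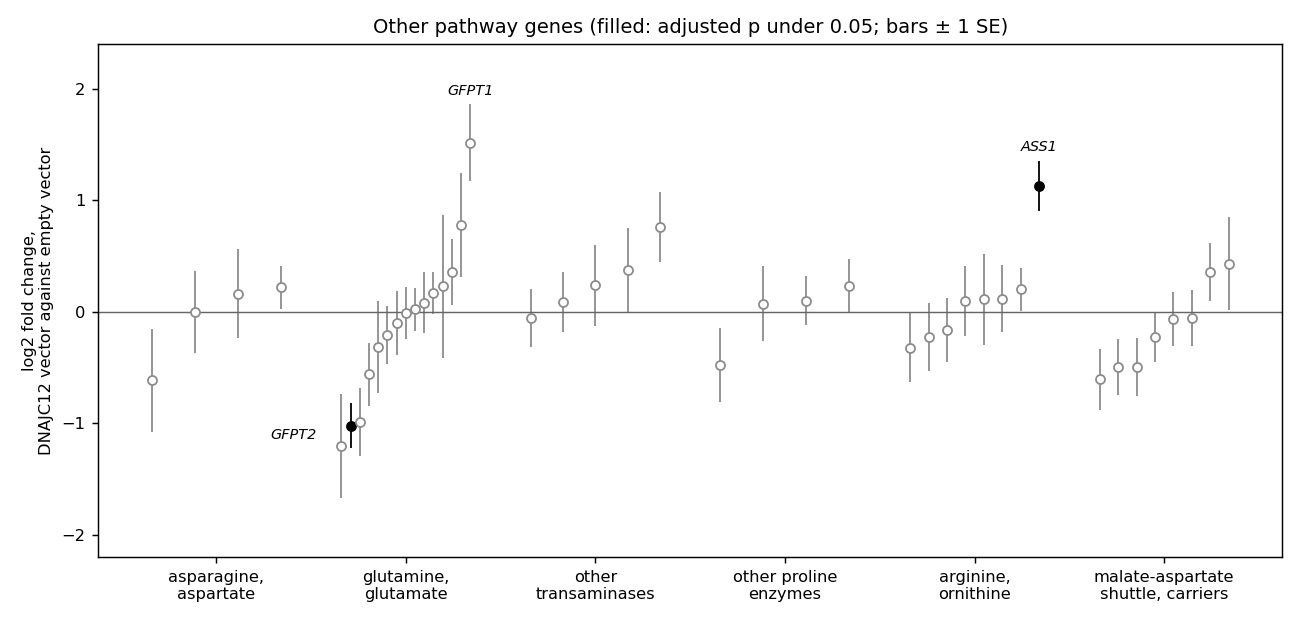
Log2 fold change ± SE of the 44 other tested pathway genes (vertical axis), sorted by value within 6 groups by role. The filled points ASS1 and GFPT2 passed at an adjusted p under 0.05, and GFPT1 is labelled as the highest value that did not.

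Among the other groups no gene passed in the main edgeR fit. Glutamate dehydrogenase GLUD1, the most abundant of the glutamine and glutamate genes, had a log2 fold change of 0.17 ± 0.19 SE. Of the asparagine and aspartate genes, ASNSD1 and NIT2, an omega-amidase, had 0.16 and 0.22. Of the other transaminases, BCAT2 and KYAT1 had 0.09 and -0.06. In proline metabolism the dipeptidase PEPD had 0.24, but 0.0084 without overexpression replicate 2, 0.11 without empty vector replicate 1 and 0.37 without overexpression replicate 1, and it passed after GC correction (0.31, adjusted p = 0.0253, edgeR). In the malate-aspartate shuttle and among mitochondrial carriers, 6 of 8 tested genes were below 0, beside 6548 of all 14520 tested genes. Malate dehydrogenase MDH2 had -0.05 and the oxoglutarate carrier SLC25A11 -0.61 ± 0.27 SE (adjusted p = 0.361, edgeR). SLC25A11 was called lower in 4 of 18 alternatives: the replicate block, GC correction, and the fits without both libraries numbered 2 or overexpression replicate 2 (-0.96, adjusted p = 0.0016, edgeR). In that order, these fits called 1937, 2859, 2754 and 3366 of all tested genes, against 181 in the main fit. The values of ASNSD1, BCAT2, KYAT1 and MDH2 changed sign in some fits without 1 library.

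The number of enzymes called changed with GC content and with the libraries numbered 2. After a correction for GC content, 4 enzymes were higher (ASNS, GPT2, GOT1 and PYCR1) and OAT was lower, while 10.2% of all tested genes were called higher and 9.46% lower. Without both libraries numbered 2, the same 4 were higher and ALDH18A1 lower, beside 10.3% and 8.41% of all tested genes.

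The genes whose pattern over the 6 libraries was most like that of ASNS, by Pearson correlation of log2 CPM, were ADAR (0.997), BRPF3 (0.997), ITGB3 (0.996), MTHFD1L (0.995) and HIST1H2BJ (0.992). These points share libraries and the split into groups, and the measure ignores the size of a difference. Log2 fold changes of these 5 ran from 0.33 (ADAR) to 1.12 (HIST1H2BJ), and none passed in the main edgeR fit. Of 18 alternatives, HIST1H2BJ was called in 9, BRPF3 and MTHFD1L in 7 each, ADAR in 1 and ITGB3 in 0. Alternatives calling HIST1H2BJ called 158 to 3366 genes in all, and those calling BRPF3 and MTHFD1L 225 to 3366. That calling ADAR called 2859, against 181 in the main fit. MTHFD1L, a mitochondrial folate enzyme, stood at 94.3, 108 and 95.0 CPM with DNAJC12 and at 53.6, 59.3 and 53.4 CPM with the empty vector.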

How the data were processed

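RNA sequencing libraries were grouped and numbered per the labels. The submitters' processing notes name HISAT2 2.0.5 as a tool and hg19 as a build. Identifiers, coordinates and symbols of all 58735 genes equal GENCODE 29 on GRCh38, which is used here. No source used here names the counter or says whether it used strand. The authors deposited a read count per gene and an FPKM value per gene, which equals the count over gene length and 1 depth per library (0.854 to 1.10 times the total).

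Groups were compared with edgeR 4.0.16 (R 4.3.3; quasi-likelihood test, TMM, filterByExpr with a minimum count of 10, robust dispersions), with Benjamini-Hochberg adjustment over 14520 genes and a threshold of 0.05. An SE is the log2 fold change over the root of its F statistic. CPM uses TMM-scaled totals, and correlations use a prior count of 2. Tested on simulated data of this comparison (14520 genes), 12% of genes with a 2-fold change and 92% with a 4-fold change were recovered, and 5.46% of calls were false. The simulation drew genes independently with the same dispersion and no effect of GC content, so these rates may not hold for the real libraries. The 8 enzymes, pathway lists, pairs and alternatives were chosen with earlier results of these data known.

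Named pathway genes are those called and, in groups with fewer than 2 calls, the 2 most abundant. Some of these genes, and 2 of the 6 pairs over which ratio tests were adjusted, are not reported here. Alternatives comprised the Wald test of DESeq2 1.42.0, its size factors within edgeR, no filter, 1 CPM in 3 libraries, a replicate block, totals without DNAJC12, limma 3.58.1 on log2 FPKM with pseudocounts of 1 and 0.1 and a filter of 0.5 FPKM or none, a GC correction (loess, span 0.3), and fits without libraries. Totals without TMM and GC-corrected ratios were added after the data were seen. Figures used matplotlib 3.10.9.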

Additional observations from a re-analysis of the deposited data

How the results depend on the processing

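All 8 enzymes kept their direction in 18 alternatives, and DNAJC12 kept its call in all of them. Of 26 named genes, 22 kept direction. The number of enzymes called higher (2) was 1 with DESeq2 size factors, 1 by limma on log2 FPKM with a filter and either pseudocount and 0 without the filter, where ASNS had an adjusted p of 0.0711. It was 4 in each of 3 fits: with the replicate block, with GC correction, and leaving out both libraries numbered 2. The number called lower (0) was 1 in the last 2 of these. Of all tested genes, these 3 fits called 1937, 2859 and 2754, against 181 in the main fit. Over the fits without 1 library, 0 to 3 enzymes were higher and 0 to 1 lower. No enzyme was called lower by the DESeq2 Wald test, and none of the 8 was lower at an unadjusted p under 0.05 in edgeR.

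Pathway genes called higher (1) numbered 0 with DESeq2 size factors and in all 3 limma fits, 2 by the DESeq2 Wald test, 2 without a filter, 4 with the replicate block, 5 with GC correction and 4 leaving out both libraries numbered 2. Those called lower (1) numbered 0 by limma without a filter, 4 with the block, 8 with GC correction and 4 leaving out both libraries numbered 2. Without 1 library, 0 to 4 were higher and 0 to 6 lower. All genes called (181) numbered 527 by the DESeq2 Wald test, 688 without a filter, 1937 with the block, 12 by limma without a filter, 2859 after GC correction, 2754 without both libraries numbered 2, and 25 to 3366 without 1 library (3366 without overexpression replicate 2, 25 without replicate 3 or empty vector replicate 1). The cause was not tested.

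Signs turned for ASNSD1 (-0.039 after GC correction, and -0.19 to 0.55 in the fits without 1 library, negative without overexpression replicate 1 or empty vector replicate 2), BCAT2 (-0.10 without both libraries numbered 2, and -0.22 to 0.28, negative without overexpression replicate 2 or empty vector replicate 1), KYAT1 (0.0077 after GC correction, and -0.27 to 0.12, positive without overexpression replicate 1 or empty vector replicate 2) and MDH2 (-0.35 to 0.12, positive without overexpression replicate 1 or 3). The ASNS to ASRGL1 log2 ratio differed by 3.32, and by 3.96 without both libraries numbered 2.

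Replicate numbers were not taken to pair the libraries: deviations from the group means correlated at 0.448, 0.585 and 0.0335 for numbers 1 to 3, and overexpression replicate 3 correlated better with empty vector replicate 1 (0.224).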

Other observations

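Over the 6 libraries some enzymes ran together, described here by Pearson correlations of log2 CPM with no test, since all points share the split into groups, library depth and GC content. PYCR1 and GLUL ran nearly parallel (0.996). ASNS ran with GPT2 (0.971) and GPT2 with GOT1 (0.948). GOT2 ran with ALDH18A1 (0.858), while its value with its cytosolic partner GOT1 was -0.12. OAT ran against PYCR1 (-0.92) and GLUL (-0.92).

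Raw counts of GPT2 varied less among the overexpression libraries than its scaled levels: they were 2294, 2420 and 2297 in replicates 1 to 3. With library totals in place of TMM, a scaling added after the data were seen, the log2 fold change of GPT2 was 0.96 (adjusted p = 0.0221, edgeR) and that of GOT1 0.66 (adjusted p = 0.0652, edgeR). The 12 annotated copies of the enzyme genes, matched by symbol, held 0 counts over all 6 libraries.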
